A study of Homo sapiens with 4 samples.

Results

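The genes SMYD4, RPA1 and RTN4RL1 lie next to each other on the short arm of human chromosome 17. Their surroundings were taken as a block of 275 bins, out of 2000 in each deposited Hi-C matrix, which cover chr17:1763501-2047500 (hg38). The members were taken by position, between an empty stretch of the matrices and a border at the right. The choice was made with earlier results of these data known. Hi-C joins and sequences pieces of DNA that lie close together in the nucleus, so the number of read pairs between 2 positions measures how often they touch. The study applied it to find what the enhancer HAR123 contacts. The libraries came from wild-type H9, a widely used line of human embryonic stem cells (hESCs). There were 2 libraries of untreated hESCs and 2 of neuroectodermal cells made from H9 by neuroectodermal differentiation. No source used here says whether the 2 replicates of a cell type came from separate cultures, so the p-values below rest only on differences between libraries, which may be technical. The limma fits also share the spread over the windows, pairs or borders of a fit. Contact matrices carry no expression values, so the cell types could not be checked by markers.

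Chromosomes fold into stretches that contact themselves more than their neighbours, called domains, and the positions between them are called borders. Loops are held in many places by cohesin and CTCF, and a border lowers the contact between the genes that it parts. SMYD4 encodes a protein with SET and MYND domains, a family that includes lysine methyltransferases. RPA1 encodes the large subunit of replication protein A, which coats single-stranded DNA during replication and repair. RTN4RL1 encodes a membrane-anchored receptor of the Nogo receptor family, which is known from neurons. DPH1, at the right edge, acts in the synthesis of diphthamide on elongation factor 2, and OVCA2 encodes a serine hydrolase.

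The genes are arranged as 2 pairs of neighbouring starts that face away from each other. SMYD4 (chr17:1779485-1830634, minus strand) and RPA1 (chr17:1829702-1900082, plus strand) overlap by 933 bp at their starts in GENCODE 44. RTN4RL1 (chr17:1934677-2025334, minus strand) and DPH1 (chr17:2030137-2043898, plus strand) start 4803 bp apart. RPA1 and RTN4RL1 run towards each other and their ends are 34.6 kb apart, with no annotated protein-coding gene between them. Contacts were measured between windows of 10 kb. The start sites of SMYD4 and RPA1 therefore fell in 1 window (chr17:1823501-1833500), and so did those of RTN4RL1 and DPH1 (chr17:2023501-2033500). No contact of one of these genes can be told from that of its partner.

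The closeness of these starts can also be seen in promoter sequences. RefSeq promoter windows (GRCh38.p14), from 250 bases before to 50 bases after each start, were found for 4 of the 5 genes. RTN4RL1 had no entry. The windows of RPA1 and SMYD4 are shown because they overlap, and the 202 bases that both windows hold (chr17:1829853-1830054) are in capitals. For RPA1 and SMYD4 the RefSeq starts differ from those in GENCODE. For DPH1, which lies at the far end of the contact between start windows described below, the first of its entries is shown. The transcribed bases of that entry are in capitals. Each is given 5′ to 3′ along its own gene.
RPA1, chr17:1829755-1830054, plus strand: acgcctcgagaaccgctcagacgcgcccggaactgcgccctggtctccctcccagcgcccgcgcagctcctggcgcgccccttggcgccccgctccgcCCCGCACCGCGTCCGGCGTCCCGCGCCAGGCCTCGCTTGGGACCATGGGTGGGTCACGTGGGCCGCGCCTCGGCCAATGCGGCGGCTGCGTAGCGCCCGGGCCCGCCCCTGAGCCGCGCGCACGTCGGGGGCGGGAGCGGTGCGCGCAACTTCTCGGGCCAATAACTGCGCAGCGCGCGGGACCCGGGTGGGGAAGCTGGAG
SMYD4, chr17:1829853-1830152, minus strand: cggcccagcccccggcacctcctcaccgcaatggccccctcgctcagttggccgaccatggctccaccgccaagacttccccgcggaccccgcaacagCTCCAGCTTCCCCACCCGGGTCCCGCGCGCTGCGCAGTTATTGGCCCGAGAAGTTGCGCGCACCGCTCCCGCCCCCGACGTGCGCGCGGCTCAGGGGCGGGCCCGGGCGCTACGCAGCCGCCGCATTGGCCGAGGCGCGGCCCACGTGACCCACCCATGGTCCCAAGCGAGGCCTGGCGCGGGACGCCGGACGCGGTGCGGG
DPH1, chr17:2029862-2030161, plus strand: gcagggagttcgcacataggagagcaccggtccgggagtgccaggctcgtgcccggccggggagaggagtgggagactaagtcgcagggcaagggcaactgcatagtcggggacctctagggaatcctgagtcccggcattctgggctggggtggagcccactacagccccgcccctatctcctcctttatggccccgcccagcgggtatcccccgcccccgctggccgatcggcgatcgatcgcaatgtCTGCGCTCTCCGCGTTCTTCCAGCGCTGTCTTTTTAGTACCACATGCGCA

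The RPA1 window held 77.7% G and C with 48 CpG dinucleotides, and the SMYD4 window 76% with 42. The DPH1 window shown held 65% with 24 CpG, and another entry of DPH1 (chr17:2029903-2030202) held 66% with 26. The medians over the 35116 promoter windows of the table were 58.7% and 14. The letters GGGCGG (GC box, both strands) occurred 3 times in the RPA1 window, 2 times in the SMYD4 window and 3 times in the DPH1 window, and 45% of all promoter windows held them at least once. The letters CCAAT (both strands) occurred 2 times in each of the RPA1 and SMYD4 windows, within their shared stretch, and 0 times in that of DPH1, against 34.6% of all promoter windows. The core motif of CTCF was matched on both strands in 0 of the 28 windows of the block and in 6 of the 148 measured windows of the matrices (4.05%). A match is a run of letters and not a bound site, and sites with other letters are missed.

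The block held 28 windows and 351 pairs of windows at least 20 kb apart. These pairs held 3576 and 3647 read pairs in hESC replicates 1 and 2, and 2028 and 2074 in neuroectoderm replicates 1 and 2. Each pair of windows held 10.2 and 10.4 read pairs on average in hESCs and 5.78 and 5.91 in neuroectoderm, so the neuroectoderm values are the less precise. Replicates differed by no more than counting noise (chi-square per degree of freedom 1.03 in hESCs, p = 0.335, and 0.956 in neuroectoderm, p = 0.695). Libraries of different cell types differed by more, at 1.29 to 1.45. All bins of the block had values in all libraries, but the stretch just before it is empty, which leaves the first 5 windows without an insulation score.

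In hESCs contact across the end of RPA1 was below the average of the matrix, and in neuroectoderm it was near that average. Contact is given as observed over expected, the summed signal of a set of window pairs divided by what the mean at the same distances in the same library gives, so that 1 is the average of the matrix. Windows were divided after the one that holds position 1900000 (chr17:1893501-1903500), which also holds the RPA1 end. The left side holds SMYD4, RPA1 and most of SERPINF1, a gene that starts before the block. The right side holds RTN4RL1, OVCA2 and most of DPH1. Between the sides the ratio was 0.759 and 0.791 in hESCs and 1.06 and 1.03 in neuroectoderm. Both neuroectoderm libraries lay above both hESC libraries, and the counting intervals did not meet. The means were 0.775 ± 0.0227 (SD, n = 2) and 1.05 ± 0.0229 (SD, n = 2), or 1.35-fold higher in neuroectoderm (95% counting interval 1.26 to 1.45, on 1919 and 1402 read pairs).

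Within the sides the cell types lay close together. The left side was at 1.12 and 1.16 in hESCs and at 1.12 and 1.18 in neuroectoderm, and these values overlap. The right side was at 1.32 in both hESC libraries, and at 1.30 and 1.28 in neuroectoderm. Its ratio of neuroectoderm to hESC was 0.977 (counting interval 0.918 to 1.04), and that of the left side was 1.01 (0.941 to 1.09). Divided by the level inside both sides of the same library, the level across the border was 0.624 and 0.639 in hESCs and 0.878 and 0.840 in neuroectoderm. Contact across the border was therefore below that inside the sides in all libraries. It was less so in neuroectoderm, where it was near the average of the matrix. The size of the change depends on the expectation: with the mean of pairs inside the block in place of that of the whole matrix, the log2 change across the border was 0.19 in place of 0.43, and those within the left and right sides were -0.044 and -0.094.

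**Figure D1:**
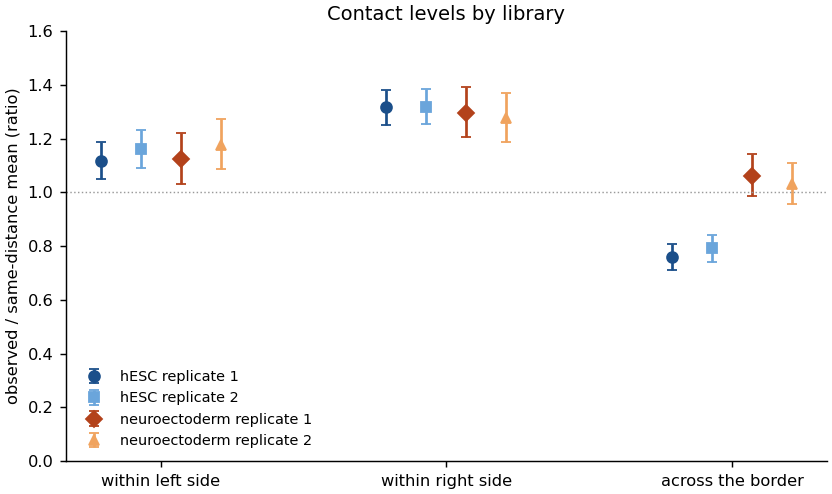
Observed over expected contact (ratio, y axis) within the left side, within the right side and across the border, 1 point per library with its exact 95% Poisson counting interval. The hESC libraries sit at 0.759 and 0.791 across the border and the neuroectoderm libraries at 1.06 and 1.03, while the points overlap within the left side.

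An exact permutation test of 2 libraries against 2 cannot go below p = 0.3333, two-sided, which is the value reached across the border. A fit over many borders was therefore added, chosen after the data had been seen: the same left, right and across levels were taken with 14 windows on either side of each of the 97 borders that allow it, and tested with limma. Across the border after the RPA1 end the log2 change was 0.43 (SE 0.055, limma adjusted p = 2.08e-11), the highest of the 97 changes. The level across it ranked 39 of 97 from the lowest in hESCs and 61 of 97 in neuroectoderm, so many positions had lower levels. Of all borders, 43.3% passed the threshold for contact across them, in either direction, so passing it is common along these matrices. The left and right levels did not pass (log2 change 0.02, limma adjusted p = 0.739, and -0.03, limma adjusted p = 0.435), while 55.7% and 39.2% of borders did for those measures. Neighbouring borders share most of their window pairs, and the spread was pooled over all of them. The call across the border was lost without hESC replicate 1 (log2 change 0.40, limma adjusted p = 0.129) and without hESC replicate 2 (0.46, limma adjusted p = 0.114), which leave 1 hESC library whose spread is assumed to be like that of the others.

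The difference across the border lay at the longer distances. Between windows 50 to under 90 kb apart it was small: 0.730 and 0.744 in hESCs against 0.865 and 0.800 in neuroectoderm, a ratio of 1.13 with a counting interval of 0.954 to 1.33 that includes no change. At 90 to under 140 kb the values were 0.757 and 0.711 in hESCs, and 1.21 and 0.946 in neuroectoderm. The 2 neuroectoderm libraries differ here, but both exceed the hESC libraries (ratio 1.47, 1.28 to 1.65). At 140 to under 280 kb, the contacts from one end of the block to the other, they were 0.813 and 0.906 in hESCs and 1.17 and 1.30 in neuroectoderm (ratio 1.44, 1.29 to 1.60). The longest contacts within each side went the other way. In the right side at 90 to under 140 kb, hESC libraries were at 2.31 and 2.40 and neuroectoderm libraries at 2.04 and 1.84 (ratio 0.823, 0.700 to 0.961). In the left side they were at 1.31 and 1.17 against 0.998 and 0.918 (ratio 0.770, 0.602 to 0.977). These distance bands were not tested beyond their counting intervals.

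**Figure D2:**
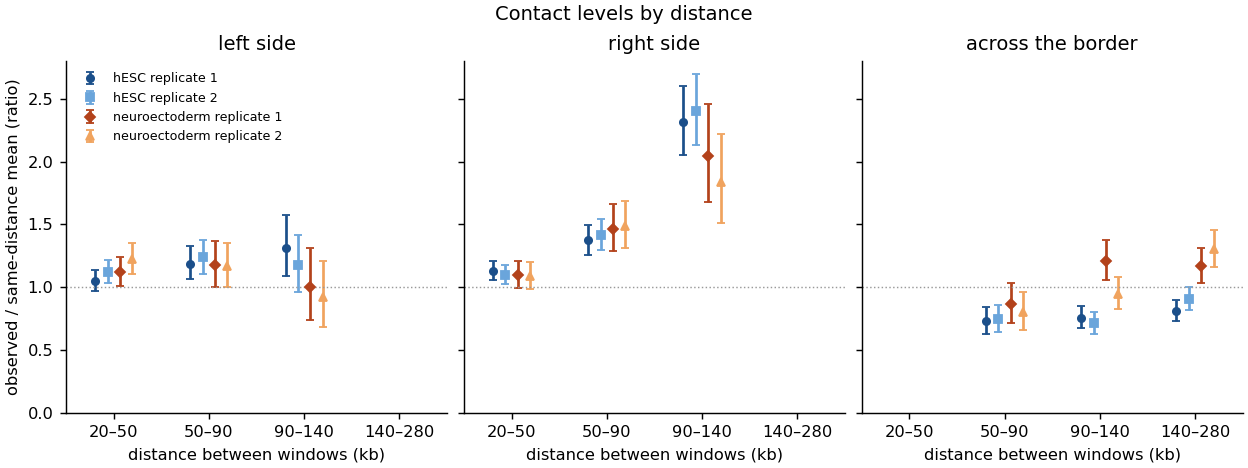
Observed over expected contact (ratio, y axis) by distance between windows in kb (x axis), for pairs within the left side, within the right side and across the border, with exact 95% Poisson counting intervals. Across the border the cell types lie apart from 90 kb on, and within the right side the hESC points reach 2.40 at 90 to 140 kb.

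By gene body, the contacts of RTN4RL1 with SMYD4 and with RPA1 were higher in neuroectoderm. Each window was assigned to the gene that holds its centre. The SMYD4 and RPA1 start window therefore counted as SMYD4, and the RTN4RL1 and DPH1 start window as the DPH1 edge. SMYD4 with RTN4RL1 was at 0.630 and 0.636 in hESCs and at 1.04 and 0.957 in neuroectoderm (ratio 1.58, counting interval 1.31 to 1.89, 257 and 234 read pairs). The gene bodies contacted each other less than average in hESCs and at about the average in neuroectoderm. RPA1 with RTN4RL1 was at 0.710 and 0.768 in hESCs and at 1.15 and 0.982 in neuroectoderm (ratio 1.44, 1.28 to 1.62). SMYD4 with the 2 windows of the DPH1 edge was at 1.18 and 1.03 in hESCs and at 1.79 and 2.32 in neuroectoderm. The ratio was 1.86 (1.34 to 2.55), although on only 87 and 75 read pairs. RPA1 with these windows was above average in both cell types, at 1.71 and 1.82 and at 2.14 and 1.86, and its interval includes no change (0.918 to 1.39).

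Differences were smaller inside RTN4RL1 and RPA1 and between SMYD4 and RPA1, but not in every set within a side. Inside RTN4RL1 the mean was 1.24 ± 0.0427 in hESCs and 1.26 ± 0.00574 in neuroectoderm (SD, n = 2), with overlapping libraries. Inside RPA1 it was 1.03 and 1.14, and between SMYD4 and RPA1 it was 1.19 and 1.13, again with overlap. Inside SMYD4 the libraries were at 1.15 and 1.14 in hESCs and at 1.39 and 1.48 in neuroectoderm, which do not overlap (ratio 1.25, 1.03 to 1.52). The 2 sets whose counting intervals lay below 1 both involved the DPH1 edge. The RTN4RL1 body contacted this edge, which holds its own start, at 1.01 and 1.12 in hESCs. In neuroectoderm the values were 0.885 and 0.863 (ratio 0.822, 0.699 to 0.961). The 3 windows between the ends of RPA1 and RTN4RL1 contacted the DPH1 edge at 3.24 and 3.12 times the expected level in hESCs and at 2.26 and 1.97 times in neuroectoderm (ratio 0.664, 0.521 to 0.828). The same 3 windows contacted the RTN4RL1 body at 1.37 and 1.44 against 1.49 and 1.52 (ratio 1.07, 0.960 to 1.19). Their contact with RPA1 was below the average in both cell types, at 0.675 and 0.662 in hESCs and at 0.712 and 0.824 in neuroectoderm. Their contact with SMYD4 was at 0.725 and 0.750 in hESCs and at 1.24 and 0.742 in neuroectoderm. These libraries overlap (ratio 1.35, 1.02 to 1.70).

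**Figure D3:**
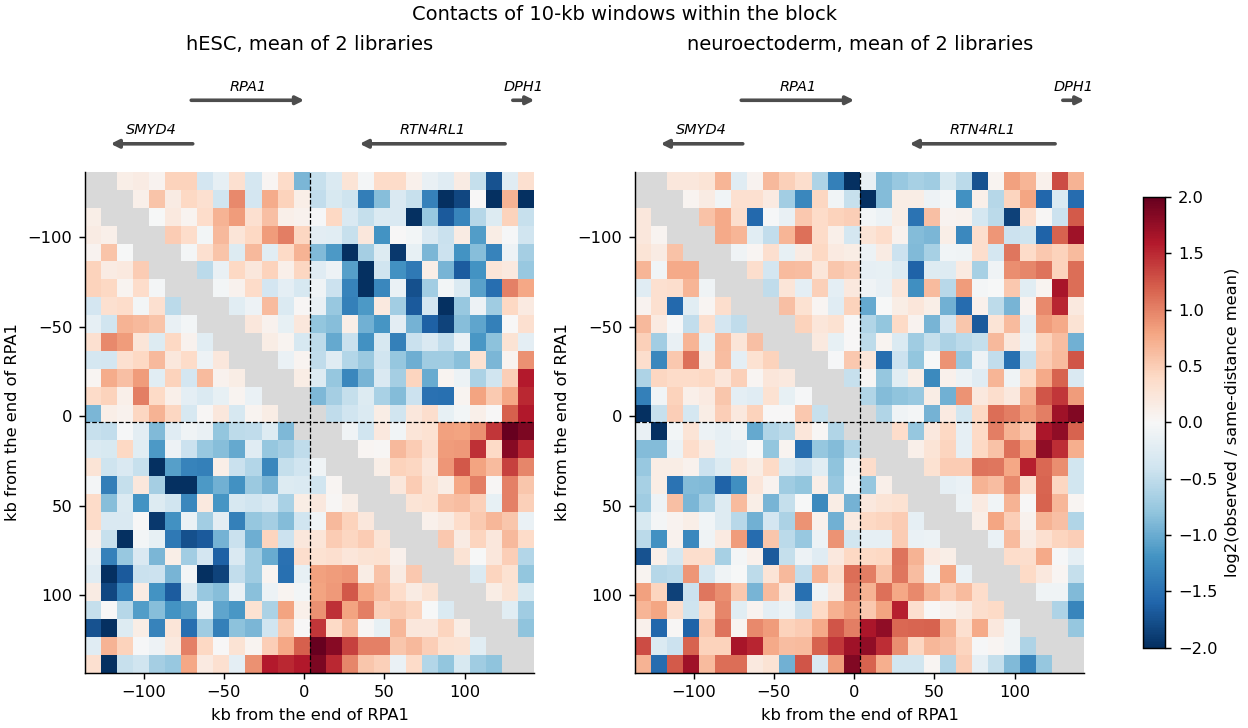
Log2 of observed over expected contact for every pair of 10-kb windows of the block at least 20 kb apart, as the mean of 2 libraries, in hESCs (left) and neuroectoderm (right). Both axes give kb from the end of RPA1, arrows show genes in the direction of transcription, the dashed lines mark the division into sides, grey marks pairs closer than 20 kb, and colours end at values of -2 and 2; the quadrant between the sides is mostly blue in hESCs and paler in neuroectoderm, and the corner where the windows after RPA1 meet the DPH1 edge is dark red in both.

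The strongest contact of the block in hESCs, and by the mean of all 4 libraries, joined the window just past the RPA1 end (chr17:1903501-1913500) to the RTN4RL1 and DPH1 start window, 120 kb away. It was at 4.16 and 5.12 times the expected level in hESCs, on 53 and 63 read pairs, and at 3.25 and 3.58 times in neuroectoderm, on 14 and 18. The libraries placed it between percentiles 98.9 and 99.9 of window pairs at its distance. The groups do not overlap, yet limma, which detects few changes of single pairs at this depth, did not separate them (log2 change -0.37, SE 0.25, limma adjusted p = 0.814). In neuroectoderm its mean of 3.41 was below those of 2 other pairs described next, at 3.61 and 3.42, by less than the spread between replicates.

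Pairs at or above percentile 95 of their distance in both libraries of a cell type numbered 9 of 351 in hESCs (2.56%) and 9 in neuroectoderm (2.56%), where 1.65% and 0.844% of all 3082 window pairs 20 to 270 kb apart in the matrices met the rule. In hESCs 7 of the 9 lay in the right side and 2 across the border, and in neuroectoderm 6 and 3. The left side held 0 of them in either cell type, and 4 pairs met the rule in both. The second of the 4 joined the RPA1 end window to the OVCA2 start window (chr17:2033501-2043500) across the border, at 3.18 and 2.91 in hESCs and at 4.07 and 3.16 in neuroectoderm. The other two joined the RTN4RL1 and DPH1 start window to chr17:1913501-1923500, and chr17:2013501-2023500 to the window just past the RPA1 end.

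Some pairs met the rule in one cell type. In hESCs these included the window past the RPA1 end with the OVCA2 start window, at 3.88 and 3.51 against 2.71 and 1.80 in neuroectoderm. In neuroectoderm they included the RPA1 end window with the RTN4RL1 and DPH1 start window, at 2.84 and 3.61 against 2.65 and 1.92 in hESCs. The pair of chr17:1913501-1923500 and chr17:2013501-2023500 was at 2.83 and 4.02 in neuroectoderm and at 1.06 and 1.57 in hESCs, on 8, 12, 5 and 7 read pairs. Passing a percentile in one cell type does not show a difference, and the difference of this pair did not pass the threshold (log2 change 1.24, limma adjusted p = 0.798).

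The 2 shared start windows also contacted each other over 200 kb. SMYD4 and RPA1 starts with RTN4RL1 and DPH1 starts were at 2.15 and 1.87 times the expected level in hESCs, on 13 and 10 read pairs, and at 2.95 and 3.31 times in neuroectoderm, on 7 and 8. The level was above average in all libraries and higher in both neuroectoderm libraries, with a ratio of 1.56 whose counting interval runs from 0.753 to 3.11. The difference was not detectable at this depth (limma log2 change 0.57, adjusted p = 0.802). Neighbouring windows on the left side were uneven. With the RTN4RL1 and DPH1 start window, chr17:1833501-1843500 was at 2.23 and 0.443 in hESCs and at 3.14 and 2.59 in neuroectoderm. On the other flank, chr17:1813501-1823500 was at 1.15 and 1.13 in hESCs and at 1.73 and 1.03 in neuroectoderm. Whether the start windows stand out from such neighbours was not tested. The promoter sequences printed above lie in these windows, but these windows are far longer than a promoter, so the contact is not assigned to them.

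Seen from the start windows, the pattern of the sides returned. From the SMYD4 and RPA1 start window, contact with its own side was at 1.08 and 1.06 in hESCs and at 1.05 and 1.10 in neuroectoderm, which overlap. Contact with the right side was at 0.744 and 0.705 in hESCs and at 1.32 and 1.10 in neuroectoderm (ratio 1.67, counting interval 1.26 to 2.17). From the RTN4RL1 and DPH1 start window, contact with the left side was at 1.50 and 1.29 in hESCs and at 1.99 and 2.16 in neuroectoderm (ratio 1.49, 1.20 to 1.83). Its contact with its own side was lower in neuroectoderm, at 1.36 and 1.30 against 1.57 and 1.79 (ratio 0.789, 0.672 to 0.923). These sets share read pairs with the levels across and within the sides and add no separate evidence.

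**Figure D4:**
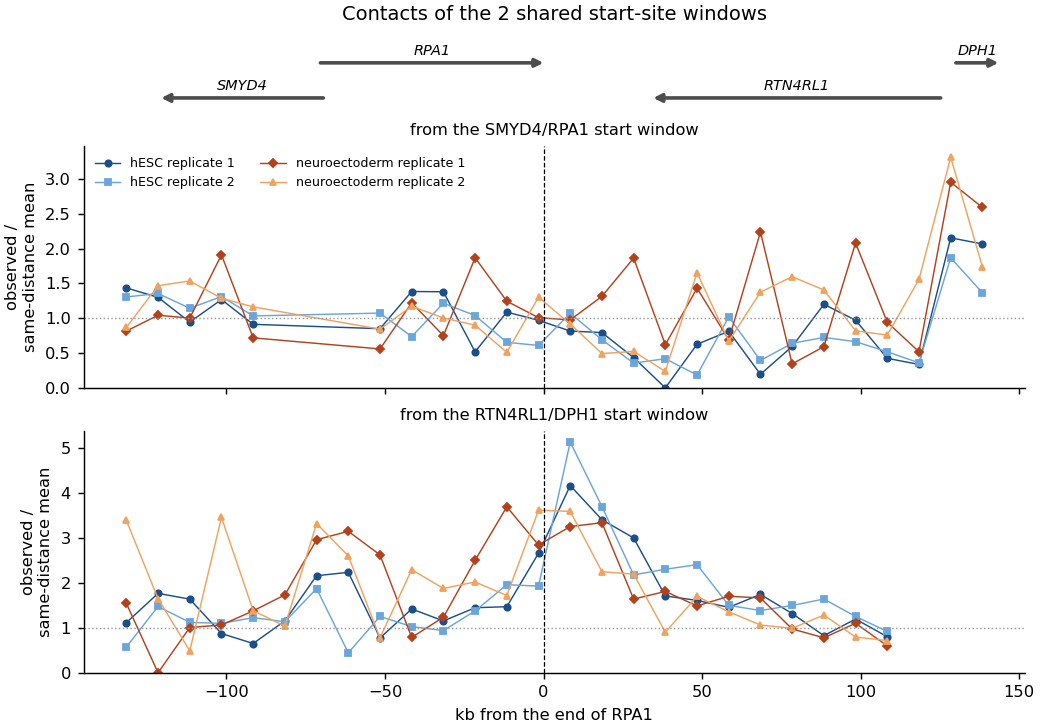
Observed over expected contact (ratio, y axis) of the SMYD4 and RPA1 start window (top) and the RTN4RL1 and DPH1 start window (bottom) with each window of the block, placed by its centre in kb from the end of RPA1 (x axis), 1 line per library. The upper lines rise at the RTN4RL1 and DPH1 start window, to between 1.87 and 3.31, and the lower lines peak near the RPA1 end, at up to 5.12 in hESCs.

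No single window pair of the block passed a test between the cell types, but the test could hardly detect one. On data simulated at the depth of the libraries, it called 1.56% of 64 pairs changed 8-fold. Of 4525 pairs in the matrices that entered the limma fit, 347 lay in the block, and 0 of these passed (0% of all pairs passed). At an unadjusted p under 0.05, 28 block pairs (8.07%) differed, 17 higher and 11 lower in neuroectoderm, against 231 of 4525 (5.10%) over the matrices. Of the 191 tested pairs across the border, 14 were under 0.05, 11 of them higher in neuroectoderm. Their median log2 change was 0.29 and 68.6% were above 0, while the medians were -0.10 in the left side, -0.18 in the right side and -0.02 over all pairs. The smallest p in the block belonged to chr17:1783501-1793500 with chr17:1833501-1843500, from within SMYD4 to the RPA1 body, at 1.17 and 1.42 in hESCs and at 0.347 and 0.326 in neuroectoderm (log2 change -1.80, SE 0.40, limma adjusted p = 0.798). In neuroectoderm this pair rests on 2 read pairs in each library. The next joined the SMYD4 end window to the RPA1 body (log2 change -1.63), and the third the SMYD4 body to the RTN4RL1 body (2.05), both at the same adjusted p.

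Insulation was also measured around the border. The insulation score is the log2 of the mean signal between the 5 windows before and the 5 windows after a position, over its mean along the matrix, so that a low score marks a border. In the middle of the block each library had its lowest score close behind RPA1, at 3.42 and 1.42 kb past its annotated end in hESCs and at 7.42 and 1.42 kb past it in neuroectoderm. At the window that holds the RPA1 end the score was -0.57 and -0.59 in hESCs and -0.33 and -0.41 in neuroectoderm. Both hESC values were lower. This window ranked 10 of 118 from the lowest in hESCs and 26 of 118 in neuroectoderm, so stronger borders exist in the matrices. Its change of 0.21 (SE 0.092) did not pass the threshold (limma adjusted p = 0.0720). In this fit the spread was pooled over all 118 windows, whose scores share window pairs, so every window had the same SE. Neither did the change of 0.20 at the window midway between the ends of RPA1 and RTN4RL1 (limma adjusted p = 0.0945), where the scores were -0.31, -0.24, 0.01 and -0.17.

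Over longer distances the difference at the border was larger. With 10 windows on either side, the score at the RPA1 end was -0.56 in both hESC libraries, and 0.04 and -0.24 in neuroectoderm, a change of 0.46 (SE 0.093, limma adjusted p = 0.0178). With 3 windows on either side it was 0.15 (limma adjusted p = 0.593). With 10 windows, 8 of the 18 block windows that could be scored passed, 7 of them higher in neuroectoderm, against 35.6% of all 104 windows. With 10 windows the minimum of neuroectoderm replicate 1 within the searched stretch no longer lay at the RPA1 end but 23.6 kb before it. Of 4 measures tested with limma at the RPA1 end, the 3 spans of the score and the level across it, 2 passed. The left and right levels there did not pass, nor did the score with windows moved by 5 kb (limma adjusted p = 0.0782). Further settings of these measures were tested as well.

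Along the rest of the block the score rose over the RTN4RL1 body and fell towards DPH1. The body of RTN4RL1 held some of the highest scores of the matrices, up to 0.63 on average in hESCs and 0.73 in neuroectoderm. At the RTN4RL1 and DPH1 start window it was -0.80 and -0.87 in hESCs and -1.01 and -1.11 in neuroectoderm. At the OVCA2 start window it was -0.85 and -0.95 in hESCs and -1.19 and -1.56 in neuroectoderm, ranks 4 and 2 of 118. The block was chosen to end at a border, so low scores at its right edge follow from that choice. Scores there also use windows beyond the block. In every library the score at the OVCA2 start window was lower than at the RPA1 end. At the OVCA2 start window both neuroectoderm libraries lay below both hESC libraries. The change at the RPA1 end had the opposite sign and did not pass the threshold. The change at the OVCA2 start window was -0.47 (SE 0.092, limma adjusted p = 8.21e-05). That SE is the pooled one, while the libraries at this window had an SD of 0.070 in hESCs and 0.26 in neuroectoderm. The change did not pass with 10 windows (limma adjusted p = 0.141), with 3 windows (0.203) or with windows moved by 5 kb (0.283).

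In all, 4 of the 23 scored windows of the block passed (17.4%), which is fewer than the 28% of all 118 windows. Beside the OVCA2 start window they were chr17:1873501-1883500 and chr17:1883501-1893500 in the 3′ part of RPA1, higher in neuroectoderm by 0.23 and 0.25, and chr17:2013501-2023500 in the 5′ part of RTN4RL1, lower by -0.26. These 3 were named after their values had been seen. The number of block windows that passed was 0 when the windows were moved by 5 kb or when 3 windows were used, and it also moved when a library was left out. No share over all windows is given for these settings, so the counts may follow the rate along the matrices.

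**Figure D5:**
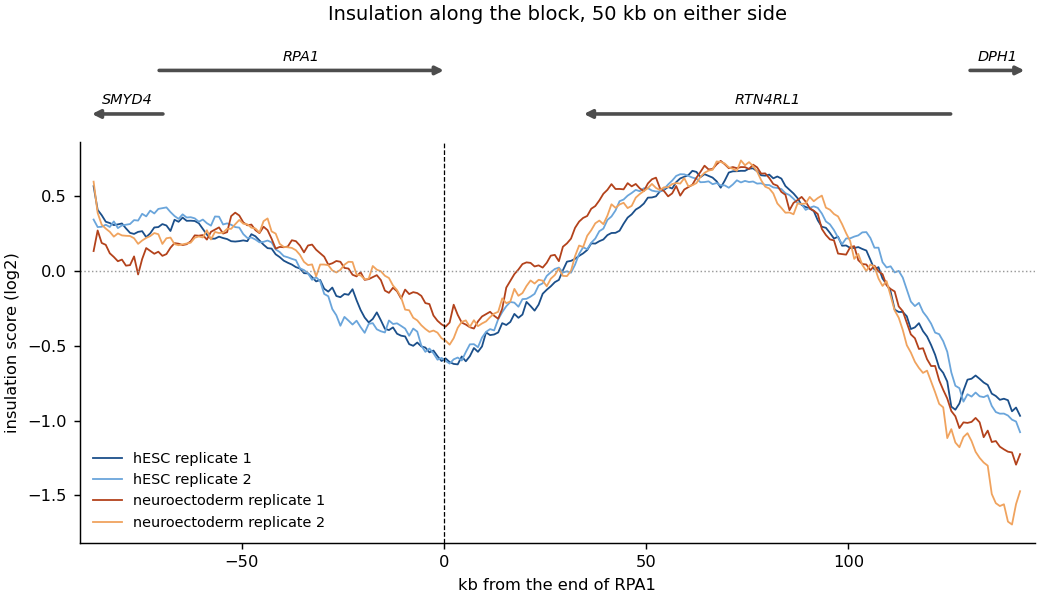
Insulation score (log2, y axis) with 50 kb on either side, at every 1-kb step of the block that could be scored, by kb from the end of RPA1 (x axis), 1 line per library, with genes as arrows. All lines dip just behind RPA1, the hESC lines to about -0.62 and the neuroectoderm lines less far, and fall below -0.8 towards DPH1, where the neuroectoderm lines are the lower.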

How the data were processed

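Hi-C matrices of 2 hESC and 2 neuroectoderm libraries of H9 cells were used, grouped by the sample labels. Headers of both cell types name the same source directories, so the assignment rests on the labels. Per the study's methods and the submitters' processing notes, the authors mapped reads to hg38 with Bowtie2 and built matrices with HOMER (versions not given in the sources used here). The deposited values are a balanced contact signal, of equal total for every measured bin of a library. Bins step by 1000 bp and overlap, each covering 10000 bp from 4500 bp left of its name, so windows were taken every 10 bins in register with the first bin of the block. The expected signal was the mean over measured bin pairs at the same distance in each library. Read pairs were recovered from the ratios of neighbouring bins (100% of values within 0.1 of a whole number), and counting intervals (95%, exact Poisson, or the conditional binomial form for ratios) cover counting error only.

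Tests used limma 3.58.1 in R 4.3.3, on all window pairs at least 20 kb apart whose mean exceeded the median (log2(signal + 1), libraries scaled to equal totals, trend), on all scored windows, or on all borders, with Benjamini-Hochberg adjustment at 0.05. Changes of pairs on this scale are understated at low signal. On data simulated at the depth of the libraries, a 1.5-fold change across the border (log2 0.58) was fitted as 0.60, and 1.56% of 64 pairs changed 8-fold were called. Named windows held start sites of protein-coding genes, gene ends and the position 1900000, and named pairs were the strongest in both or in one cell type and the 3 with the smallest p. The members, lists and tests were chosen with earlier results of these data known. Libraries with the same replicate number did not deviate together (r = -0.0066 over window pairs, r = -0.046 over insulation scores), so the numbers were not used to pair them.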

Additional observations from a re-analysis of the deposited data

How the results depend on the processing

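With 2 libraries in each cell type and few read pairs for each window pair, the counts depended on single settings. The number of block window pairs that passed was 0 under each alternative tried. Of the block windows tested for insulation, 8 of 18 passed with 10 windows on either side, against 35.6% of all 104 windows. With 3 windows 0 passed, with windows moved by 5 kb 0, and with the replicate number as a block 3. The number also moved when a library was left out. Apart from the setting with 10 windows, no share over all windows is given beside these counts. Insulation from observed over expected values is the same quantity by construction and gave the same 4 windows. The change of insulation at the RPA1 end ran from 0.17 to 0.25 when a library was left out, passing the threshold without neuroectoderm replicate 2 (limma adjusted p = 0.0109), and was 0.46 with 10 windows. As a block, the replicate number left it at 0.21 (limma adjusted p = 0.0830), and it changed no call of the left, right or across levels. The log2 change across the border stayed above 0 under each alternative, from 0.40 to 0.46 when a library was left out (both extremes, without an hESC replicate, no longer passed), at 0.33 with the border moved 20 kb to the right, and at 0.19 with the expectation from pairs inside the block. The change of the left level was -0.13 over pairs at least 50 kb apart, -0.044 with the expectation inside the block, and -0.018 to 0.050 when a library was left out, so it has no settled direction. That of the right level was 0.0032 with the border moved 10 kb to the left and -0.094 with the expectation inside the block. At percentile 90, 21 hESC and 18 neuroectoderm pairs of the block qualified, and at percentile 99, 3 and 0. By 1 replicate alone, 22 hESC pairs and 28 or 29 neuroectoderm pairs qualified. No share over all window pairs is given at these settings, so these counts do not show whether the block stands out. The cause of these differences was not tested.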
